A study of Mus musculus with 16 samples.

Results

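Splenic B2 cells were set against splenic CD4 T cells, a B against a T lymphocyte population sorted from the same tissue of the same mouse strain. The comparison uses 5 of the 16 arrays of the series, namely the arrays titled B2 replicate 1 and 2 and CD4T replicate 1, 2 and 3. It asks which transcripts separate the B from the T lineage in resting spleen. It was made across all 12422 probe sets of the array, as B2 minus CD4T on the log2 scale.

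Both groups came from wild-type C57BL/6 mice. The B2 cells (n = 2) were sorted as IgM intermediate, IgD high and CD11b negative cells. The CD4 T cells, called CD4T here (n = 3), were sorted as CD3+ and CD4+ cells without NK1.1, a gate that leaves out NKT cells that carry NK1.1 but not other T cell subsets. About 100000 cells were sorted per sample, and their RNA was amplified before labelling. The sources used here do not give the mice's age or sex or any pooling of animals. The series calls its replicates biological, but no label ties them to separate mice or sorts, and the p-values then cover the spread among these 5 arrays, which may be partly technical. The other 11 arrays hold peritoneal B1 cells (n = 2, IgM high, IgD intermediate, CD11b+), splenic NKT cells (n = 3, CD3+CD4+NK1.1+), and CD8aaT and CD8abT cells (n = 3 each) from a culture that the labels call RTOC.

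B2 cells, also called follicular or conventional B cells, recirculate through the follicles of spleen and lymph nodes. They carry IgM and IgD, which signal through the Cd79a and Cd79b chains, the kinases Lyn, Syk, Blk and Btk and the adaptor Blnk, and they present antigen on MHC class II molecules to CD4 T cells. CD4 T cells bind peptide on MHC class II through a T cell receptor that signals through the CD3 chains, the kinases Lck and Zap70 and the adaptors Lat and Lcp2. Naive T cells depend on the interleukin 7 receptor for survival and on Cd28 for costimulation.

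Array quality differed among the 5 arrays before any gene was compared. The deposited intensities had medians of 76.2 and 73.8 on the B2 arrays and 54.1, 50.9 and 49.6 on the CD4T arrays. Values were therefore put on 1 distribution by quantile normalization. Lineage and the authors' scaling cannot be told apart in the unnormalized values. What normalization leaves of that scaling on single probe sets was not tested. The 5' probe set for 18S ribosomal RNA read 877 on B2 replicate 1 and 62.6 on B2 replicate 2. It read 1326 on CD4T replicate 1 and 59.2 and 54.4 on CD4T replicates 2 and 3. Replicate 1 thus stood apart in each group, and it did so too in B1 (776, against 33.4) and in NKT (675, against 52.7 and 56.3). In the cultured groups replicate 1 was instead the lowest, in CD8abT (129, against 857 and 716) and in CD8aaT (66.5, against 273 and 249). The labels do not say what the 4 replicate 1 arrays of B2, CD4T, B1 and NKT share. The 3' to 5' ratio of Actb, a measure of RNA integrity and amplification length, was 5.31 and 4.19 on the B2 arrays and 7.02, 3.59 and 3.71 on the CD4T arrays. That of Gapdh was 5.77 and 6.84 on the B2 arrays and 8.48, 5.85 and 5.83 on the CD4T arrays, so it was higher on replicate 1 in CD4T but not in B2. Over all probe sets, log2 values of CD4T replicates 2 and 3 differed with an SD of 0.148, whereas CD4T replicate 1 differed from them with an SD of 0.539 and 0.588 and the B2 arrays from each other with an SD of 0.324. Whether CD4T replicates 2 and 3 are independent is not known.

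CD4T replicate 1 also carried more of some B cell transcripts than the other CD4T arrays, and less of others. Cd72 was at 4.64 on replicate 1 against 6.12 and 6.50 on the others, and Pou2af1 at 5.24 against 6.07 and 6.37. In bulk RNA, fewer cells of a type and less RNA per cell cannot be told apart. Ms4a1, which encodes the B cell surface protein CD20, was at 12.18 and 11.86 on the B2 arrays and at 9.13, 7.73 and 7.80 on the CD4T arrays, the highest CD4T value being that of replicate 1. Cd74, the invariant chain of MHC class II, was at 11.02 and 10.18 on the B2 arrays and at 8.94, 6.66 and 6.64 on the CD4T arrays. Such steps were not limited to B cell genes. CD4T replicate 1 was more than 0.5 above both other CD4T arrays for 12.4% of genes (brightest probe set of each of 8251 genes). By list, it was so for 6 of the 13 MHC class II presentation genes and for 13 of the 28 respiratory chain genes. In other B cell lists, it was so for 1 of 8 receptor complex genes and 2 of 9 receptor signalling genes. The counts were 4 of 12 for surface proteins, 4 of 15 for transcription factors, 3 of 9 for survival and homing receptors and 0 of 10 for antibody secretion. Counted over probe sets, it was so for 11.4% of all, for 8.81% of those called higher in B2 and for 4.3% of those called lower. In the fit without that array, it was so for 22.2% of those called at least 2 higher and for 7.38% of those called at least 2 lower. Calls depend on the CD4T values, with or without replicate 1, so these shares are partly set by the selection. The part of this array in the results was not tested, and results that depend on it are given with and without it.

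The labels were checked on the marker genes. Cd79b, the Ig-beta chain of the B cell receptor, was at 12.15 and 11.61 on the B2 arrays and at 8.79, 7.38 and 7.36 on the CD4T arrays. Cd3e, a CD3 chain, was at 6.33 and 6.33 on the B2 arrays and at 8.95, 8.80 and 8.52 on the CD4T arrays. Thy1, a surface protein of mouse T cells, was at 6.16 and 5.86 on the B2 arrays and at 10.50, 10.02 and 10.01 on the CD4T arrays. All 4 markers separated the groups without overlap, as did 18.8% of all probe sets with B2 above CD4T and 19.1% with B2 below: the differences were 4.04 ± 0.49 for Cd79b, 3.80 ± 0.46 for Ms4a1, -2.43 ± 0.16 for Cd3e and -4.17 ± 0.20 for Thy1 (SE, limma, adjusted p 0.013, 0.013, 0.0021 and 0.00090). Other genes of the gates were less even. Ighd, the IgD heavy chain, was 1.97 ± 0.20 higher in B2. The 2 bright probe sets for Ighm, the IgM heavy chain, were 2.94 and 1.90 higher, while its 14 dimmer probe sets ranged from -0.76 to 0.65. Cd4 was at 7.65 and 7.61 on the B2 arrays and at 7.94, 8.21 and 8.45 on the CD4T arrays, a difference of -0.57 that did not pass (adjusted p 0.17, and 0.017 without CD4T replicate 1). Itgam, which encodes CD11b, was at 4.98 on both B2 arrays and at 4.74 to 4.83 on the CD4T arrays.

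In all, 667 of the 12422 probe sets (5.37%) passed the test, at an adjusted p under 0.05 by limma with Benjamini-Hochberg adjustment, which is what "called" means below. Of these, 318 (2.56%) were higher and 349 (2.81%) lower in B2, and they name 242 and 296 genes. A difference of at least 1, a 2-fold change, was reached by 238 of the higher and 229 of the lower ones. The count rests on few arrays. It was 2584 without CD4T replicate 1 (10.3% of probe sets higher and 10.5% lower), 220 without CD4T replicate 2, 291 without CD4T replicate 3, 154 without B2 replicate 1 and 169 without B2 replicate 2. Where 1 B2 array was left out, the lone one was assumed to vary like the CD4T group. All 318 and all 349 were called in the same direction without CD4T replicate 1, and 73 and 58 of them in each of these 5 fits. The median difference over all probe sets was 0.01 after quantile normalization and 0.56 without it, where 5804 probe sets were called higher and 257 lower.

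**Figure D1:**
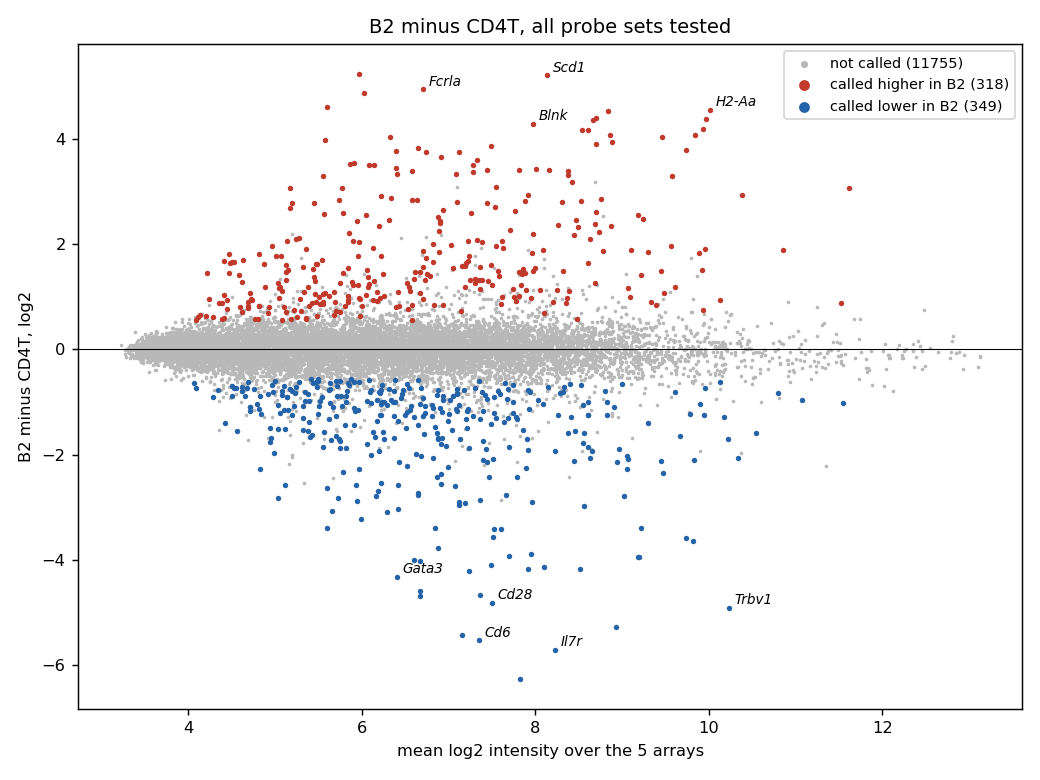
B2 minus CD4T (y axis, log2) against the mean log2 intensity over the 5 arrays (x axis) for all 12422 probe sets, with the 318 called higher in B2 in red, the 349 called lower in blue and the others in grey. Called probe sets lie across most of the intensity range except its ends, and large differences, such as Scd1 at 5.21 and Il7r at -5.71, stand well outside the grey band.

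The 15 named genes furthest above CD4T in B2 included the B cell receptor signalling genes Blk and Blnk, 3 MHC class II chains and 2 immunoglobulin segments. Scd1, which encodes a desaturase that makes monounsaturated fatty acids, was at 10.99 and 11.54 on the B2 arrays and at 5.77, 6.04 and 6.34 on the CD4T arrays. That is a difference of 5.21 ± 0.24, or 37.1-fold (adjusted p 0.00086). Of the other probe sets of Scd1, one differed by 4.54 and one, at 7.70 in B2 and 7.69 in CD4T, by 0.01. Fcrla, an Fc receptor-like protein of B cells, was at 9.81 and 9.53 on the B2 arrays and at 4.72, 4.66 and 4.80 on the CD4T arrays. Its difference was 4.94 ± 0.13 (30.8-fold, adjusted p 0.00029), and CD4T replicate 1 was level with the other CD4T arrays. Ly6d, a lipid-anchored surface protein that marks B lineage commitment in bone marrow, was 4.18 ± 0.26 higher on 1 probe set. Its other one, at 4.71 in B2 and 4.57 in CD4T, differed by 0.14 and was not called. Cd24a, another lipid-anchored surface protein, was 3.91 ± 0.19 higher. Napsa, an aspartic protease, was 4.07 ± 0.58 higher. Hhex, a homeobox transcription factor, was at 9.78 and 9.86 on the B2 arrays and at 5.58, 5.99 and 6.26 on the CD4T arrays, a difference of 3.88 ± 0.22. The immunoglobulin segments Ighv14-2 (4.88) and Igkv6-23 (4.38) were also among the 15 largest, but segments share sequence and the probe sets may read several. Igkv6-23 was at 9.07, 7.71 and 7.85 on the CD4T arrays. Normalized over all 16 arrays, its mean was 7.91 in CD4T, 9.06 in NKT, 3.60 in CD8abT and 3.52 in CD8aaT. Ms4a1 was at 7.92, 8.44, 5.29 and 5.40 in the same order, while Scd1 was lower in CD4T (5.69) than in CD8abT (6.19) and CD8aaT (6.92). The part of B cell transcripts read on all 3 CD4T arrays in the differences was not tested.

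The genes furthest below CD4T in B2 were mostly receptors and signalling proteins of T cells. Il7r, the alpha chain of the interleukin 7 receptor, was at 4.79 and 4.82 on the B2 arrays and at 9.99, 10.78 and 10.77 on the CD4T arrays. The difference was -5.71 ± 0.27, or 52.3-fold (adjusted p 0.00086), the largest among the genes named here. Cd6, a T cell adhesion receptor, was 5.53 ± 0.28 lower on 1 probe set and 1.59 ± 0.28 lower on its brighter one. Tent5c, a poly(A) polymerase, was at 4.63 and 5.44 on the B2 arrays and at 8.42, 9.43 and 9.55 on the CD4T arrays, a difference of -4.10 ± 0.43. Actn1, the actin cross-linker alpha-actinin, was at 7.07 and 6.57 on the B2 arrays and at 10.86, 10.76 and 10.65 on the CD4T arrays, and its difference was -3.94 ± 0.18. Its other probe sets differed by -2.89 and -0.70. The T cell receptor segments Trbv1 (-4.92) and Trav9d-3 (-4.21) carry the same doubt as the immunoglobulin segments. Other probe sets of Trav9d-3 differed by -2.78 and by 0.11, the last not called. Tdrp was 3.92 ± 0.60 lower on 1 probe set and 0.22 higher, not called, on the other.

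**Figure D2:**
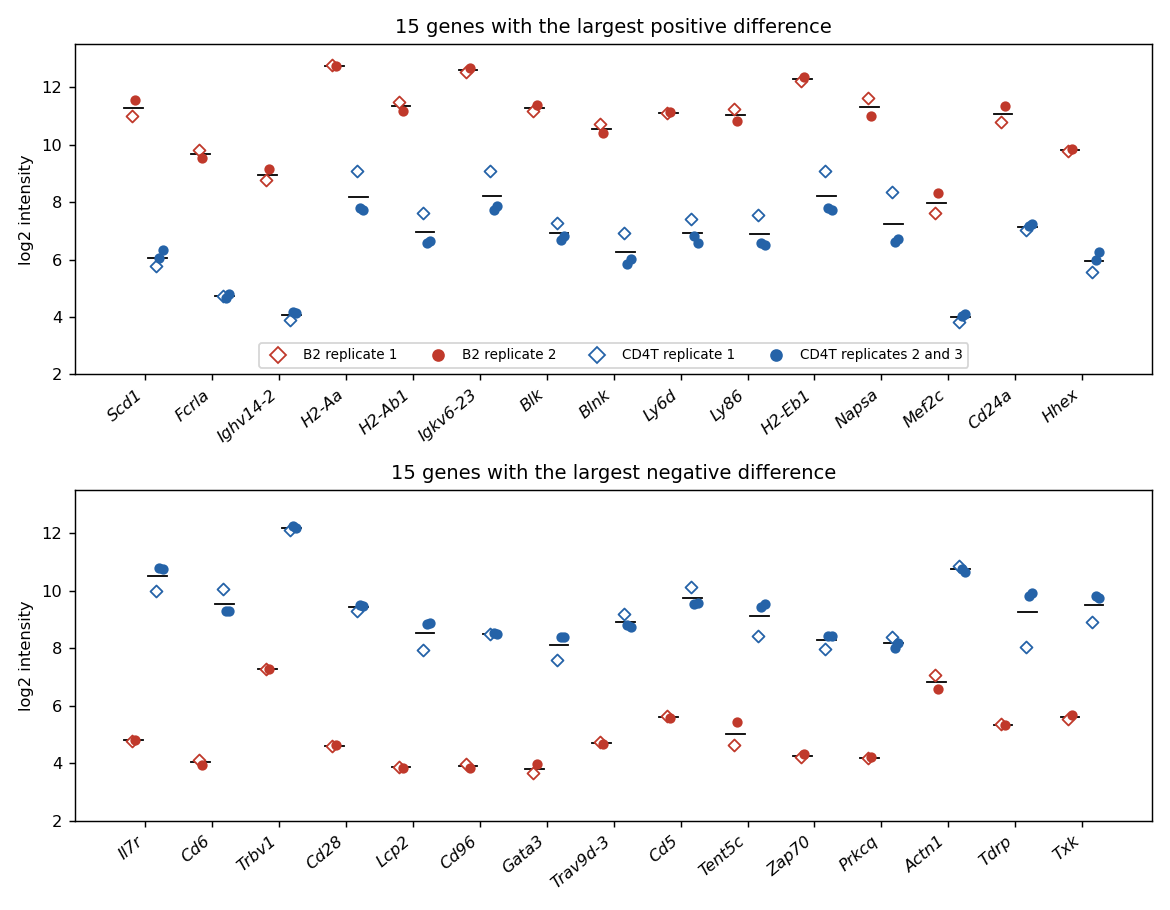
Log2 intensity (y axis) of the 15 genes with the largest positive and the 15 with the largest negative difference, by gene (x axis). Red marks are the B2 arrays, blue marks the CD4T arrays, open diamonds replicate 1, and black bars the group means. Groups do not overlap for any of the 30 genes, and CD4T replicate 1 lies apart from the other CD4T arrays for some genes, above them for Napsa at 8.35 and below them for Tdrp at 8.05.

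All 30 genes differed in the same direction within replicate 1 (B2 replicate 1 minus CD4T replicate 1) and within the other arrays (B2 replicate 2 minus the mean of CD4T replicates 2 and 3). The positive differences were 3.13 to 5.22 within replicate 1 and 3.73 to 5.35 within the others. The negative ones were -5.97 to -2.68 within replicate 1 and -5.95 to -3.88 within the others. No overlap of the groups was required by the naming rule, so these directions follow from it. Calls were less stable than directions: 8 of the 15 higher and 12 of the 15 lower genes were called in all 5 fits that leave out 1 array. Without B2 replicate 1 and without B2 replicate 2, 10 of the 30 calls were lost, at adjusted p 0.0596 to 0.215 and 0.0505 to 0.207. Without CD4T replicate 2, 4 were lost (0.052 to 0.12), and 2 without CD4T replicate 3 (0.079 and 0.092). The 10 genes are Blnk, H2-Aa, H2-Ab1, H2-Eb1, Igkv6-23, Ly86, Napsa, Tdrp, Tent5c and Txk.

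Gene lists were read on 1 probe set per gene, the brightest over the 5 arrays. Over all 8251 named genes, 211 (2.56%) were called higher and 256 (3.1%) lower on that probe set, with a median difference of 0.00. Each list count below is to be set beside these. Members and lists were chosen with earlier results of these data known. An excess over these shares may thus be partly set by that choice and is not a test of a list. Without CD4T replicate 1 the shares over all genes were 10.4% and 11.6%.

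**Figure D3:**
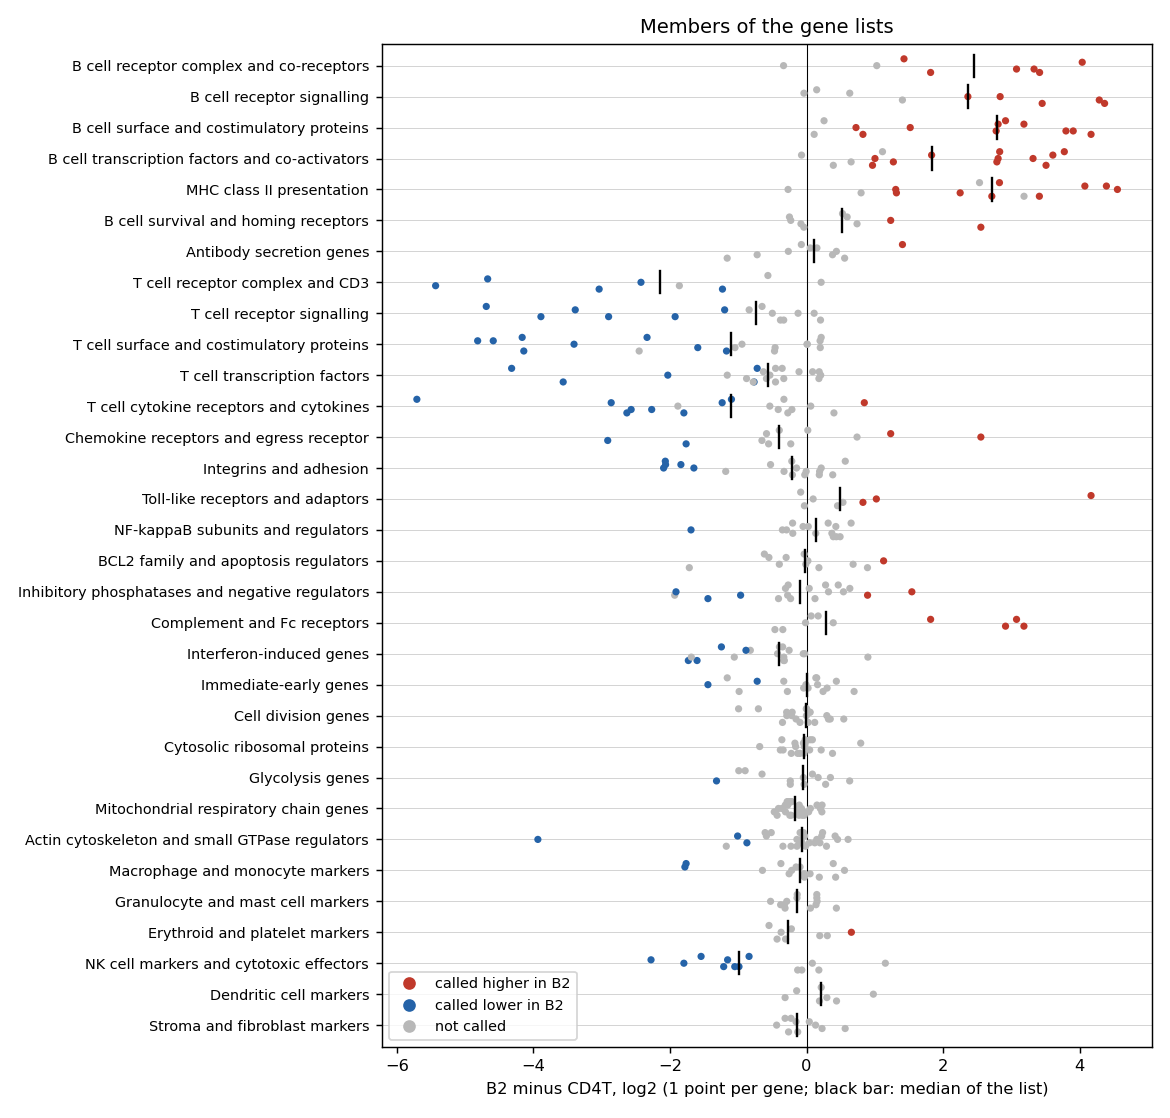
B2 minus CD4T (x axis, log2) of each member of the 32 gene lists (rows), 1 point per gene, red where called higher in B2, blue where called lower and grey where not called. The black bar is the median of the list. The lists of B cell receptor complex, B cell receptor signalling, B cell surface proteins, B cell transcription factors and MHC class II lie to the right, with medians of 1.83 to 2.79, while B cell survival and homing receptors and antibody secretion genes have medians of 0.53 and 0.10. The T cell receptor complex and T cell surface lists lie to the left, with medians of -2.14 and -1.11, and the ribosomal and cell division lists around 0.

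The B cell receptor complex and its co-receptors were higher in B2 for 6 of 8 measured genes, with 0 lower and a median difference of 2.45. Besides Cd79b these were Cd22, an inhibitory co-receptor, Cd72, another inhibitory receptor, Fcgr2b, the inhibitory Fc receptor for IgG, Cr2, the complement receptor CD21, and Cd81, a tetraspanin. Cd22 was at 9.68 and 10.03 on the B2 arrays and at 6.49, 6.36 and 6.48 on the CD4T arrays. Its difference was 3.41 ± 0.15 (adjusted p 0.00068). Fcgr2b was at 7.91 and 7.32 on the B2 arrays and at 4.42, 4.71 and 4.49 on the CD4T arrays, a difference of 3.08 ± 0.21. Cr2, much dimmer at 5.47 and 5.65 on the B2 arrays and 3.62 to 3.82 on the CD4T arrays, differed by 1.82 ± 0.13. Cd79a, the Ig-alpha chain that pairs with Cd79b, was not called. It was at 7.69 and 8.82 on the B2 arrays and at 7.54, 7.15 and 6.98 on the CD4T arrays, so the groups did not overlap but the B2 arrays lay far apart (difference 1.03 ± 0.37, adjusted p 0.22).

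Signalling proteins downstream of the receptor were higher for 5 of 9 measured genes, with 0 lower and a median of 2.36. Blk, a Src family kinase of B cells, was at 11.18 and 11.39 on the B2 arrays and at 7.28, 6.67 and 6.81 on the CD4T arrays. The difference was 4.37 ± 0.21, or 20.6-fold (adjusted p 0.00090). Blnk, the adaptor that brings Btk and Plcg2 to Syk, was at 10.70 and 10.39 on the B2 arrays and at 6.92, 5.84 and 6.01 on the CD4T arrays, a difference of 4.29 ± 0.35. Plcg2, the phospholipase of this pathway, differed by 3.45 ± 0.28, Btk by 2.84 ± 0.37 and Syk by 2.36 ± 0.27. Prkcb, the protein kinase C form of B cells, was 1.40 ± 0.36 higher on its brighter probe set and did not pass (adjusted p 0.11, and 0.012 without CD4T replicate 1), while its dimmer one was 1.60 ± 0.23 higher and was called. Vav2 and Hcls1 differed by -0.04 and 0.15 and were not called.

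Of 12 measured B cell surface and costimulatory proteins, 10 were higher and 0 lower, with a median of 2.79. Ly86, which holds the Toll-like receptor homologue Cd180 at the surface, was 4.17 ± 0.36 higher, while Cd180 itself was dim on all 5 arrays and 0.83 ± 0.11 higher. Fcer2a, the low-affinity IgE receptor CD23 of follicular B cells, was at 10.41 and 10.26 on the B2 arrays and at 7.35, 7.12 and 6.98 on the CD4T arrays. It differed by 3.18 ± 0.15 (adjusted p 0.00086). Cd40, the receptor for T cell help, was at 9.01 and 8.56 on the B2 arrays and at 6.01, 5.88 and 6.05 on the CD4T arrays, a difference of 2.81 ± 0.17. Cd83 differed by 2.78 ± 0.14, Cd55, a complement regulator, by 2.91 ± 0.31 and Cd86, a ligand of Cd28, by 0.72 ± 0.11. Cd80, the other ligand of Cd28, was at 4.54 and 4.36 on the B2 arrays and at 4.23 to 4.52 on the CD4T arrays and was not called. Of 10 complement and Fc receptors, 4 were higher and 0 lower: Fcer2a, Fcgr2b, Cd55 and Cr2.

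Transcription factors and co-activators of the B lineage were higher for 11 of 15 measured genes, with 0 lower and a median of 1.83. Pax5, which sets B cell identity, was at 10.15 and 9.85 on the B2 arrays and at 7.81, 6.95 and 6.80 on the CD4T arrays. The difference was 2.81 ± 0.33 (adjusted p 0.012). Ebf1, which acts with Pax5, was at 6.73 and 7.01 on the B2 arrays and at 4.03, 4.17 and 4.06 on the CD4T arrays, a difference of 2.79 ± 0.13. Tcf4, an E protein, differed by 3.78 ± 0.22, Pou2af1, the B cell co-activator of octamer-binding factors, by 3.61 ± 0.42, Mef2c by 3.51 ± 0.12 on its brightest probe set, and Spib, an Ets factor, by 3.32 ± 0.23. Irf8 differed by 2.83 ± 0.24. Ciita, the master co-activator of MHC class II genes, was at 7.24 and 7.33 on the B2 arrays and at 6.41, 6.34 and 6.21 on the CD4T arrays. Its difference was smaller, 0.97 ± 0.12 (adjusted p 0.012). Pou2f2, the octamer-binding factor Oct-2, was 1.11 ± 0.24 higher and did not pass (adjusted p 0.069).

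MHC class II presentation genes were higher for 9 of 13 measured members, with 0 lower and a median of 2.71. The chains of the presenting molecules led the list. H2-Aa, the alpha chain of I-A, was at 12.76 and 12.73 on the B2 arrays and at 9.07, 7.78 and 7.73 on the CD4T arrays. That is a difference of 4.55 ± 0.44, or 23.5-fold (adjusted p 0.0062), and 4.92 without CD4T replicate 1. H2-Ab1, the beta chain of I-A, differed by 4.39 ± 0.35, and H2-Eb1, the beta chain of I-E, by 4.08 ± 0.44. H2-Ea, the alpha chain of I-E, was at 3.84 and 4.03 on the B2 arrays and at 4.05 to 4.40 on the CD4T arrays. C57BL/6 mice carry a deletion in the promoter of this gene and make no I-E. Chains of H2-DM and H2-O followed, H2-DMb1 at 3.41 ± 0.20, H2-Ob at 2.71 ± 0.39, H2-Oa at 2.83 ± 0.35 and H2-DMb2 at 1.32 ± 0.15. Among the processing enzymes Ifi30, a thiol reductase, differed by 2.25 ± 0.18 and Lgmn, a cysteine protease, by 1.31 ± 0.15. Ctss, which trims the invariant chain, was bright in both groups and not called.

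Cd74 and H2-DMa missed the threshold with CD4T replicate 1 and passed without it. The difference of Cd74 was 3.19 ± 0.79 (adjusted p 0.10), or 4.01 without that array (adjusted p 0.00057). H2-DMa was at 10.78 and 9.83 on the B2 arrays and at 8.70, 7.36 and 7.26 on the CD4T arrays, with a difference of 2.53 ± 0.53 (adjusted p 0.067), or 3.03 without it (adjusted p 0.0022). With these, 11 of 13 were called higher without CD4T replicate 1. H2-Ob ran the other way between the arrays, at 5.80 on CD4T replicate 1 and 6.77 on both others.

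**Figure D4:**
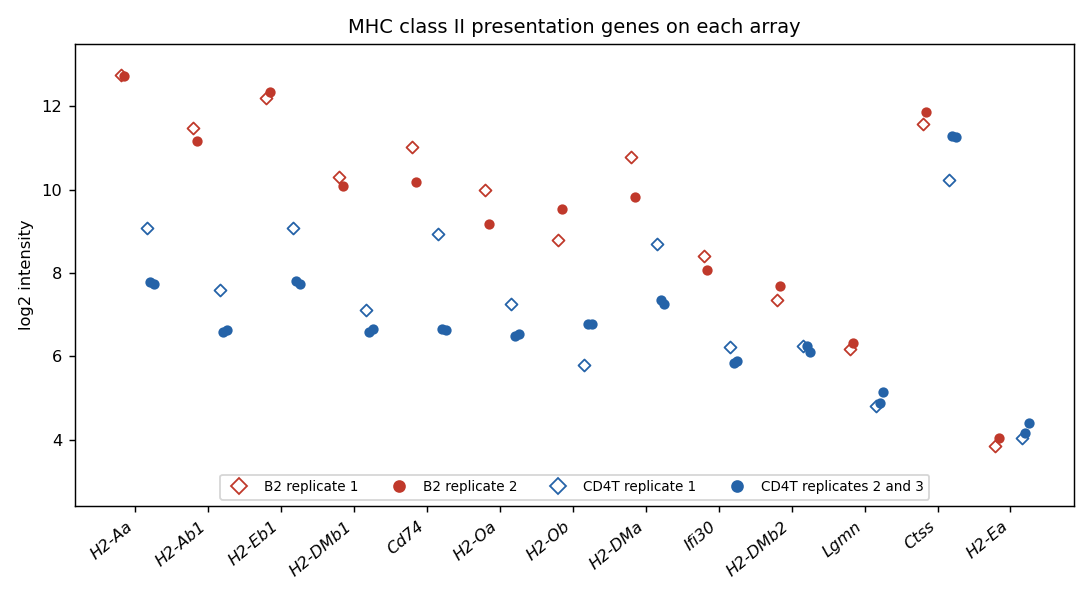
Log2 intensity (y axis) of the 13 MHC class II presentation genes, ordered by B2 minus CD4T (x axis), with B2 arrays in red, CD4T arrays in blue and replicate 1 as open diamonds. CD4T replicate 1 lies above the other CD4T arrays for H2-Aa, H2-Ab1, H2-Eb1, H2-DMb1, Cd74, H2-Oa, H2-DMa and Ifi30, and clearly below them for H2-Ob and Ctss, and H2-Ea is at the bottom in both groups.

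MHC class II promoters are known to share an X box, bound by RFX, and a Y box, bound by NF-Y, to which Ciita is recruited. Because 9 of the 13 genes were called higher, the RefSeq promoters of the list (GRCm38.p6, 250 bases before to 50 after the start) were searched on both strands for the Y box core TGATTGG and for the X box letters AACNNATG. Both motifs were chosen after these sequences were seen. The Y box core stood in 9.0% of 27025 genes and in 11.3% of the 6576 array genes with a promoter entry. Of the 10 list genes with a promoter entry, 6 held it. In 4 of them, X box letters stood upstream, 26 to 29 bases before the Y box core on the same strand, an arrangement with a spacing of 15 to 40 bases that 11 of 27025 genes (0.0407%) held. Of these 11, the array measured 5 (0.076% of its genes with a promoter entry), namely the 4 below and H2-Eb2, which was not called. The windows below show that arrangement, 5' to 3', with the matched letters in capitals.
H2-Eb1, chr17:34305762-34305817, plus strand: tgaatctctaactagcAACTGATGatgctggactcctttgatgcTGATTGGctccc
H2-DMb1, chr17:34153084-34153139, plus strand: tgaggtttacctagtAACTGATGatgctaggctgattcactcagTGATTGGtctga
H2-DMb2, chr17:34145113-34145168, plus strand: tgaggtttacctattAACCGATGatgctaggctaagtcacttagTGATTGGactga
H2-Ob, chr17:34238802-34238857, plus strand: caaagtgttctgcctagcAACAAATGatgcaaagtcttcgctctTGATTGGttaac
H2-Aa and H2-Oa held the Y box core without those X box letters, and the window of H2-Aa is shown for comparison.
H2-Aa, chr17:34287862-34287917, minus strand: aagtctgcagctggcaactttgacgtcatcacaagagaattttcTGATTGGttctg
The differences of the 4 genes with both motifs ran from 1.32 for H2-DMb2 to 4.08 for H2-Eb1, and that of H2-Aa was 4.55. A match in letters is a description and not a measured binding site.

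The octamer ATTTGCAT, the site of Oct-2 and its co-activator Pou2af1, was searched in the same way. It stood in 8 of 169 genes called higher in B2 with a promoter entry (4.73%) and in 1 of 229 called lower (0.437%). The share was 1.97% of 27025 genes and 1.78% of the 6576 array genes with a promoter entry. As above, a match in letters is not a measured binding site. The 8, counted on any called probe set, were Blnk, Ccr6, Cnr2, Gadd45g, Ms4a4c, Myt1l, Prkcb and Vpreb3. The window of Blnk, the member of this set with the largest difference among the named genes, follows with the octamer in capitals.
Blnk, chr19:40994318-40994377, minus strand: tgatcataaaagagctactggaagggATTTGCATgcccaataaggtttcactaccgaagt

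On the T cell side, the T cell receptor complex and its co-receptors were lower in B2 for 5 of 8 measured genes, with 0 higher and a median of -2.14. Cd3d was at 3.94 and 3.85 on the B2 arrays and at 9.49, 9.16 and 9.33 on the CD4T arrays. Its difference was -5.43 ± 0.14, or 43.2-fold (adjusted p 0.00024), while its other probe set differed by 0.02. Cd3g was at 4.65 and 4.47 on the B2 arrays and at 10.34, 8.63 and 8.73 on the CD4T arrays, a difference of -4.67 ± 0.55, and here CD4T replicate 1 was the highest array. Cd247, the zeta chain, differed by -3.04 ± 0.12 on its brighter probe set and by 0.17, not called, on the other. Cd8a, the co-receptor of cytotoxic T cells, was at 4.62 and 4.90 on the B2 arrays and at 5.67, 6.14 and 6.16 on the CD4T arrays, a difference of -1.23 ± 0.20. Cd8b1, its partner chain, was at 5.47 and 4.91 on the B2 arrays and at 7.75, 6.63 and 6.78 on the CD4T arrays. Its difference of -1.86 ± 0.39 did not pass (limma, adjusted p 0.066, and 0.0064 without CD4T replicate 1). Both differences were larger than that of Cd4 (-0.57), and the part of other T cells in the CD4T arrays was not tested. Ptcra, which is used only in early thymocytes, differed by 0.21 and was not called.

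Signalling proteins of the T cell receptor were lower for 6 of 14 measured genes, with 0 higher and a median of -0.75. Lcp2, the adaptor that Zap70 phosphorylates, was at 3.88 and 3.83 on the B2 arrays and at 7.93, 8.84 and 8.88 on the CD4T arrays. The difference was -4.69 ± 0.32 (adjusted p 0.0023). Zap70, the kinase that takes in T cells the place Syk has in B cells, was at 7.20 and 7.18 on the B2 arrays and at 10.77, 10.49 and 10.47 on the CD4T arrays on its brightest probe set, a difference of -3.39 ± 0.14. Its other probe sets differed by -4.02 and by 0.05, the last at 8.38 in B2 and 8.33 in CD4T. Prkcq, protein kinase C theta, differed by -2.90 ± 0.13, Txk, a Tec family kinase, by -3.89 ± 0.30, Fyn by -1.93 ± 0.17 and Sh2d1a, the adaptor SAP, by -1.20 ± 0.12. Each had its B2 arrays below all CD4T arrays. Members that were not called included Vav1 at -0.12, Plcg1 at -0.33 and Rasgrp1 at 0.11. Lat was 0.84 ± 0.23 lower and did not pass (adjusted p 0.13, and 0.019 without CD4T replicate 1).

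Of 18 measured T cell surface and costimulatory proteins, 8 were lower and 0 higher, with a median of -1.11. Cd28 was at 4.59 and 4.64 on the B2 arrays and at 9.29, 9.52 and 9.48 on the CD4T arrays. It differed by -4.82 ± 0.12, or 28.2-fold (adjusted p 0.00024). Cd96, an adhesion and inhibitory receptor of T and NK cells, was at 3.98 and 3.85 on the B2 arrays and at 8.49, 8.52 and 8.51 on the CD4T arrays, a difference of -4.59 ± 0.11. Cd5, an inhibitor of antigen receptor signalling that B1 cells also carry, was at 5.64 and 5.58 on the B2 arrays and at 10.14, 9.53 and 9.58 on the CD4T arrays. Its difference was -4.14 ± 0.22. Cd27, a receptor of the TNF family, differed by -3.41 ± 0.28 and Ctla4, the inhibitory counterpart of Cd28, by -2.34 ± 0.36. Icos, a costimulatory receptor, was at 4.25 and 4.14 on the B2 arrays and at 5.36, 7.22 and 7.37 on the CD4T arrays. It missed the threshold at -2.45 ± 0.64 (adjusted p 0.11) and reached -3.13 without CD4T replicate 1 (adjusted p 7.5e-05). Cd2 was bright in both groups, differed by -0.46 and was not called.

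The list of T cell transcription factors, which also holds the enzyme Dntt, separated the groups less evenly. Of its 20 measured genes, 5 were lower and 0 higher, with a median of -0.56. Gata3, which T cells need from the thymus on, was at 3.65 and 3.98 on the B2 arrays and at 7.61, 8.41 and 8.38 on the CD4T arrays. Its difference was -4.32 ± 0.29 (adjusted p 0.0022). Id2, an inhibitor of E proteins, was at 5.53 and 5.22 on the B2 arrays and at 9.20, 8.85 and 8.77 on the CD4T arrays, a difference of -3.57 ± 0.18. Satb1, a chromatin organizer, differed by -2.03 ± 0.14. Dntt, the terminal transferase of developing lymphocytes, and Nr4a1 differed by -0.77 and -0.72. Lef1, a factor of naive T cells, was 0.88 ± 0.20 lower and did not pass (adjusted p 0.077). Ets1, Ikzf1, Runx1 and Klf2 were not called. Without CD4T replicate 1 the count lower was 11 of 20.

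Cytokine receptors and cytokines of T cells were lower for 8 of 17 measured genes, with a median of -1.10. After Il7r came Il6st, the shared signalling chain of the interleukin 6 family, at 5.60 and 5.70 on the B2 arrays and 8.04, 8.69 and 8.80 on the CD4T arrays. Its difference was -2.86 ± 0.25 (adjusted p 0.0045). Tnfsf11, which encodes RANKL, differed by -2.63 ± 0.22, Il18r1 by -2.57 ± 0.13, Ifng by -2.27 ± 0.18 and Fasl by -1.80 ± 0.20. Il10ra, the receptor chain for interleukin 10, was the member called in the other direction. It was at 7.49 and 7.40 on the B2 arrays and at 6.47, 6.69 and 6.64 on the CD4T arrays, a difference of 0.85 ± 0.12.

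Among 11 chemokine and egress receptors, 2 were higher, 2 lower and 7 not called. Ccr6 was at 10.82 and 10.62 on the B2 arrays and at 8.39, 8.03 and 8.08 on the CD4T arrays, a difference of 2.55 ± 0.16. Cxcr5, which draws cells into follicles, was at 8.64 and 8.52 on the B2 arrays and at 7.51, 7.21 and 7.31 on the CD4T arrays, a difference of 1.23 ± 0.14. Cxcr3, a receptor of effector T cells, was at 5.40 and 5.49 on the B2 arrays and at 8.05, 8.54 and 8.48 on the CD4T arrays, a difference of -2.91 ± 0.18. Ccr2 differed by -1.76 ± 0.31. Ccr7 and S1pr1, which both lineages use to enter the T zone and to leave lymphoid tissue, differed by -0.59 and 0.02 and were not called. Of 18 integrins and adhesion proteins, 5 were lower and 0 higher: Selplg, the ligand of P-selectin, by 2.09, the integrin chains Itgb2 by 2.07, Itgb1 by 2.07 and Itga6 by 1.65, and the tetraspanin Cd9 by 1.84. Without CD4T replicate 1, 4 chemokine receptors and 8 adhesion genes were called lower.

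Regulators of signalling moved in both directions. Ptpn6, the phosphatase SHP-1, was at 8.88 and 8.97 on the B2 arrays and at 7.29, 7.35 and 7.51 on the CD4T arrays, a difference of 1.54 ± 0.12. Dusp2 was 0.89 ± 0.16 higher. Socs3, an inhibitor of cytokine signalling, was at 6.60 and 6.93 on the B2 arrays and at 8.72, 8.70 and 8.62 on the CD4T arrays, a difference of -1.91 ± 0.14. Dusp1 and Cish were lower by 1.44 and 0.97. In all, 2 of 18 such genes were higher and 3 lower. Among 8 Toll-like receptors and adaptors, 3 were higher, namely Ly86, Unc93b1 (1.02 ± 0.19), which carries nucleic acid sensors to endosomes, and Cd180. Of 9 survival and homing receptors of B cells, Ccr6 and Cxcr5 were called.

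Of 17 measured interferon-induced genes, 4 were lower and 0 higher, with a median of -0.40: Ifit2 (-1.73 ± 0.24), Gbp2 (-1.60 ± 0.19), Ifit1 (-1.25 ± 0.20) and Irf7 (-0.89 ± 0.16). Without CD4T replicate 1 the count was 11. Xbp1, a factor of secretory cells, was 1.40 ± 0.18 higher and was the 1 called among 10 antibody secretion genes. Prdm1, which drives plasma cell differentiation, was at 4.52 and 4.58 on the B2 arrays and at 5.26, 5.80 and 6.07 on the CD4T arrays, a difference of -1.16 ± 0.25 that did not pass (adjusted p 0.072). Jchain, abundant in plasma cells, was at 5.73 and 5.75 on the B2 arrays and at 5.56 to 5.77 on the CD4T arrays.

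Genes of general cell functions gave few or 0 calls. Of 20 cell division genes, 21 ribosomal protein genes and 28 respiratory chain genes, 0 were called in either direction, with medians of -0.00, -0.04 and -0.17. Without CD4T replicate 1, calls were 2 higher and 4 lower for cell division, 2 higher and 1 lower for ribosomal proteins, and 2 in each direction for the respiratory chain. Of 13 glycolysis genes, Pfkp was lower by 1.32, and of 15 NF-kappaB genes, Traf1 was lower by 1.69. Among 12 apoptosis regulators, Birc3 was higher by 1.13, while Bcl2 and Bcl2l11 differed by 0.02 and -0.03. Of 28 actin regulators Actn1, Gimap4 and Dock2 were lower, and of 16 immediate-early genes Dusp1 and Nr4a1.

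Markers of other cell types were read beside these results. The list of NK cell markers and cytotoxic effectors was lower in B2 for 8 of 13 genes, with a median of -0.99. Klrd1 (CD94) was at 4.48 and 4.71 on the B2 arrays and at 7.33, 6.63 and 6.67 on the CD4T arrays, a difference of -2.28 ± 0.25. Klrk1, Ctsw, Gzma, Klra7, Prf1 and Gzmb were lower by 0.84 to 1.54, and Ncr1, which marks NK cells, was at 3.75 and 3.76 on the B2 arrays and 3.82 to 3.92 on the CD4T arrays. Summed normalized intensities of this list were 409 and 483 on the B2 arrays and 756 to 922 on the CD4T arrays. The macrophage list gave 2 of 15 genes lower, Ctsd and Ccr2, which T cells also express, with sums of 858 and 880 in B2 and 1251 to 1582 in CD4T. The macrophage genes Lyz2 and Adgre1 differed by -0.26 and 0.43 and were not called. Of 8 erythroid and platelet genes, Slc4a1 was 0.66 higher, with sums of 624 and 668 in B2 and 650 to 973 in CD4T. Of 13 granulocyte, 7 dendritic cell and 10 stroma genes, 0 were called. Their sums were 555 to 574, 957 to 1113 and 641 to 672 in B2 and 533 to 613, 671 to 1032 and 563 to 806 in CD4T. The part of other cell types in the results was not tested.

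The lineage difference was also read in samples that share no array with it, as B1 minus NKT, where 1158 probe sets (9.32%) were called higher and 1126 (9.06%) lower. Peritoneal B1 cells differ from B2 cells in tissue as well as in cell type. Deposited intensities had medians of 75.68 and 69.27 on the B1 arrays and 53.34, 50.03 and 50.24 on the NKT arrays. The B cell arrays thus stood higher in deposited scale here too, as B2 did against CD4T. The part of this shared scale difference in the agreement given next was not tested. Of the 318 probe sets higher in B2, 306 (96.2%) had the same sign in B1 minus NKT and 269 (84.6%) were called the same way, while 5 were called the opposite way. Those 269 are 23.2% of the probe sets called higher in B1. Of the 349 lower in B2, 325 (93.1%) had the same sign, 278 (79.7%) were called the same way, which is 24.7% of those called lower in B1, and 9 were called the opposite way. The sign was the same for 76.3% of all probe sets. The B1 minus NKT count of 2284 was 794 without NKT replicate 3, 816 without NKT replicate 2, 1195 without B1 replicate 2 and 1418 without B1 replicate 1.

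On quantile normalized values of all 16 arrays, both B1 arrays lay above all 9 NKT, CD8aaT and CD8abT arrays for 243 of the 318 probe sets (76.4%, against 10.5% of all probe sets). They lay below all 9 for 247 of the 349 (70.8%, against 10.4%). Deposited medians of the CD8aaT and CD8abT arrays, 30.42 to 31.84, were also below those of B1, and the part of this was not tested. All 15 named higher genes and 13 of the 15 named lower genes showed this separation. Fcrla was at 9.40 and 9.69 on the B1 arrays, against 4.41 to 5.18 in NKT, 3.60 to 3.90 in CD8aaT and 3.45 to 3.78 in CD8abT. Blk was at 11.07 and 11.55 in B1, against 6.64 to 7.42 in NKT, 4.76 to 5.34 in CD8abT and a wide 4.56 to 9.55 in CD8aaT. Il7r was at 4.01 and 4.18 in B1, against 10.26 to 10.99 in NKT, 8.20 to 9.71 in CD8aaT and 6.92 to 7.70 in CD8abT. Tent5c and Actn1 were the 2 named genes that did not separate.

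**Figure D5:**
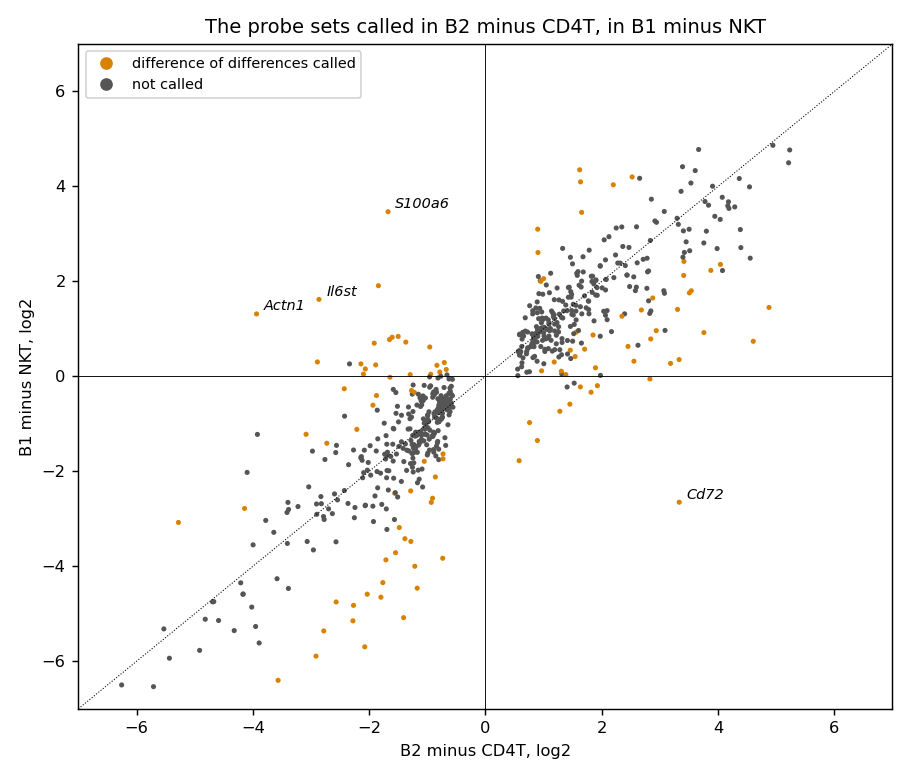
The 667 probe sets called in B2 minus CD4T, by B2 minus CD4T (x axis, log2) and B1 minus NKT (y axis, log2). Orange points passed the test of the difference between the 2 lineage differences, grey points did not, and the dotted line marks equal differences. Most points lie in the lower left and upper right quadrants, while Cd72, Actn1, S100a6 and Il6st lie in the others.

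The difference between the 2 lineage differences was tested itself, over 10 arrays, and 238 probe sets (1.92%) were called. A fit that blocks on the replicate number called 601, and 3789 in B1 minus NKT. Replicate 1 had the high 18S reading in all 4 populations, and the part of what it marks was not tested. Without a block, the count was 414 without CD4T replicate 1, 143 without CD4T replicate 2, 124 without B2 replicate 1, 118 without B2 replicate 2, 139 and 136 without NKT replicates 2 and 3, and 136 without B1 replicate 2. Among the 318 higher and the 349 lower probe sets, 48 and 59 were called. These probe sets were selected on B2 minus CD4T, which is part of the tested difference, and this selection can raise their counts. The same holds for the list counts that follow, so neither is to be set beside the 1.92%. By list, the test was passed by 3 of the 6 called B cell receptor complex genes and 4 of the 11 called B cell transcription factors. It was passed by 2 of the 9 called MHC class II genes and 5 of the 8 called NK cell genes. Of the chemokine and egress receptors, 1 of 2 called higher and 2 of 2 called lower passed it. So did 3 of the 5 called adhesion genes. Of the regulators of signalling, 2 of 2 called higher and 1 of 3 called lower passed it. Further lists not given here also held such genes. The test was passed by 0 of the 5 called B cell receptor signalling genes and 0 of the 5 called T cell receptor complex genes. It was passed by 0 of the 6 called T cell receptor signalling genes, and likewise by 0 in 7 other lists that had 1 to 3 called genes each. Among the members called in the B cell and T cell lists, 6 with such a difference were picked after their values were seen. Fcer2a was 3.18 higher in B2 than in CD4T and 0.27 higher in B1 than in NKT (adjusted p 0.00096 for the difference). Cr2 was 1.82 higher and 0.33 lower (adjusted p 0.0016), Ccr6 2.55 and 0.32 higher (adjusted p 0.0090) and Irf8 2.83 higher and 0.05 lower (adjusted p 0.0059). On the T cell side, Id2 was 3.57 lower in B2 than in CD4T and 6.40 lower in B1 than in NKT (adjusted p 0.0015), and Satb1 2.03 and 4.59 lower (adjusted p 0.0015).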

How the data were processed

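RNA of sorted cells was measured on 16 single-colour Affymetrix mouse arrays, 1 per sample. The authors deposited 1 linear intensity per probe set and array, made with RMA per the submitters' processing notes. The sources used here give neither its version nor the set of arrays it was run on. The file holds 12488 probe sets, of which 66 controls were left out. Gene symbols came from the platform annotation: 10833 probe sets had 1 symbol, 396 several and 1193 none listed, and 10817 matched a RefSeq gene of GRCm38.p6.

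Intensities were log2 transformed, quantile normalized over the 5 arrays and fitted with limma 3.58.1 in R 4.3.3 (lmFit, eBayes, two-sided), with Benjamini-Hochberg adjustment over 12422 probe sets and a threshold of 0.05. The number of arrays limits the precision. B1 minus NKT and the difference of differences were fitted likewise over their 5 and 10 arrays. Lists were counted on each gene's brightest probe set. Named genes were the 15 largest called differences per direction with 1 proper symbol and no overlap, gate genes and markers apart, the leading called members of each list, and the 6 largest differences of differences. Probe sets with several or no symbols are not named. Members and lists were chosen with earlier results of these data known. Same-numbered B2 and CD4T deviations correlated at 0.583 for replicate 1 and 0.621 for replicate 2. The labels do not say that numbers pair samples, and the groups share only 2 numbers, so the main fits have no block. What same-numbered arrays share is thus not modelled in the main fits, and fits with the number as a block are given as an alternative. Alternatives were the normalization, an offset, dim probe sets left out, moderation, a replicate block, averaging CD4T replicates 2 and 3, a minimum difference and leaving out arrays.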

Additional observations from a re-analysis of the deposited data

Results flagged for a closer look

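The 6 genes with the largest difference between the 2 lineage comparisons, and 3 more of the 30 genes with the largest B2 minus CD4T differences, are given here, each called by limma's test of the difference between the 2, at adjusted p under 0.05 over 10 arrays. B1 cells came from the peritoneum and the other 3 populations from spleen, so tissue and cell type cannot be told apart in these values. Levels are log2 intensities normalized over all 16 arrays.

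Cd72, the inhibitory receptor of B cells, had the largest such difference, 6.01 ± 0.74. It was at 8.62 and 9.06 on the B2 arrays, at 4.32, 5.76 and 6.13 on the CD4T arrays, at 4.30 and 4.96 on the B1 arrays and at 6.66, 7.45 and 7.52 on the NKT arrays. B2 thus lay above CD4T and B1 below NKT.

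Actn1 gave -5.26 ± 0.27. It was at 6.72 and 6.20 on the B2 arrays, at 10.50 to 10.72 on the CD4T arrays, at 8.47 and 8.24 on the B1 arrays and at 6.82 to 7.32 on the NKT arrays. S100a6, a calcium-binding protein, gave -5.19 ± 0.28, with 5.66 and 5.36 on the B2 arrays, 6.85 to 7.48 on the CD4T arrays, 11.15 and 11.52 on the B1 arrays and 7.55 to 7.73 on the NKT arrays. For Lmo7 the value was -5.03 ± 0.23, with 9.71 and 9.74 on the B1 arrays and 3.73 to 4.70 on the arrays of the other 3 populations. Il6st gave -4.51 ± 0.42, since it was 2.86 lower in B2 than in CD4T and 1.62 higher in B1 than in NKT. Nacc2, a nuclear protein of the BTB family, gave -4.46 ± 0.53 and was 3.25 higher in B1 than in NKT. Each of these 6 was called, with the same sign, in every alternative run for it, at 5.51 to 6.35 for Cd72 and -5.53 to -5.00 for Actn1.

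Of the genes with the largest B2 minus CD4T differences, 3 others differed between the comparisons. The segment Ighv14-2 gave 3.49 (4.88 in B2 minus CD4T and 1.45 in B1 minus NKT), Hhex 1.75 (3.88 and 2.23) and Cd5 -1.48 (-4.14 and -2.78). These 3 were selected on B2 minus CD4T, which is part of the tested difference. Mean levels of Cd5 were 5.25 in B2, 5.68 in B1, 9.55 in CD4T and 8.44 in NKT. Those of Hhex were 9.61, 8.55, 5.58 and 6.32 in the same order, and those of Ighv14-2 were 8.70, 5.31, 3.79 and 3.92.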

How the results depend on the processing

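Of the 667 calls in B2 minus CD4T, counts stayed within 1.5 times under median centring (609), cyclic loess (630), all 16 arrays in one fit (980), an offset of 32 (597), dim probe sets left out (508) and trend with robust moderation (870). Without between-array normalization 6061 were called (5804 higher), and 8149 in B1 minus NKT. With CD4T replicates 2 and 3 averaged 247 were called (125 higher, 122 lower). A minimum difference of 1 left 229 lower, and 839 in B1 minus NKT. Leaving out 1 array, or replicate 1 of both groups, gave 154 to 4078 calls, 93 to 2049 higher and 61 to 2029 lower, 794 to 2442 in B1 minus NKT, and 118 to 414 for the difference of differences. With the replicate number as a block, the pairing fit called 698 (364 higher, 334 lower), 3789 in B1 minus NKT, and 601 differences of differences. Over 124 named probe sets and 16 settings, 1608 of 1973 values kept their call, 365 lost it and 0 changed sign. Without 1 array, 74 of the 124 lost their call without B2 replicate 1, 74 without B2 replicate 2, 54 without CD4T replicate 2 and 41 without CD4T replicate 3, and 49 when CD4T replicates 2 and 3 were averaged. Ighm and E2f8 had probe sets called in opposite directions. With 3 residual degrees of freedom, a gene not called is not shown to be alike in both groups, and RMA compresses differences of dim probe sets.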
